A study of Mus musculus with 23 samples.

Results

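The canonical transient receptor potential (TRPC) channel genes Trpc1, Trpc4, Trpc5, Trpc6 and Trpc7 were followed through 23 single neurons of the mouse arcuate hypothalamus. The members were taken by gene symbol, 5 genes of 23400 in the deposited table, and every cell was used. Levels are in FPKM, a gene's sequenced fragments divided by its transcript length and by the size of the library, so that genes of different length can be set side by side. Unless said otherwise, a gene counts as present in a cell from 1 FPKM upward.

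TRPC channels are cation channels of the plasma membrane that admit sodium and calcium and depolarise the neuron when receptors coupled to phospholipase C are active. TRPC1, TRPC4 and TRPC5 form a subgroup in which TRPC1 assembles with TRPC4 or TRPC5. TRPC6 and TRPC7 belong to another subgroup, opened by the lipid diacylglycerol. In the arcuate nucleus, TRPC channels are known as the currents through which leptin and serotonin 2C receptors excite POMC neurons, and through which neurokinin and oestrogen signals act on kisspeptin neurons.

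Each library came from 1 GFP-positive neuron picked by hand from a young adult vGLUT2-IRES-Cre::loxSTOPlox-L10-GFP mouse of mixed background. All cells share this genotype, and the labels name no treatment of the mice. Cre is expressed from the gene of the glutamate transporter VGLUT2 and removes a stop cassette permanently, so GFP marks cells that express the transporter or did so earlier. The study gives 2 male mice as donors without tying cells to mice, so the 23 cells are 1 group and no test between cells was made. Cells 1 to 15 share 1 title prefix (set 1) and cells 16 to 23 another (set 2), which the labels do not explain.

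Cells were grouped by peptide transcript. The 8 cells with 1000 FPKM or more of Pomc, whose product is cut into alpha-MSH and other peptides, are called Pomc cells (4, 5, 6, 11, 12 and 13 in set 1, 21 and 22 in set 2). The 5 cells with 500 FPKM or more of Kiss1, the precursor of the reproductive peptide kisspeptin, are called Kiss1 cells (8 in set 1, 17, 19, 20 and 23 in set 2). The other 10 cells met neither limit. The lowest Pomc value inside the limit was 1488 FPKM in cell 22 and the highest outside it 922 FPKM in cell 3. For Kiss1 these values were 894.6 FPKM in cell 23 and 62.5 FPKM in cell 21. Kiss1 cells therefore came mostly from set 2, and within-set differences between Pomc and Kiss1 cells are given for each member.

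Libraries differed 4.21-fold in relative depth, from cell 14 (shallowest) to cell 20 (deepest), and 4054 to 8042 genes per cell reached 1 FPKM. This gene count differed by type, from 4054 to 6708 in Kiss1 cells, 6434 to 8042 in Pomc cells and 6403 to 7632 in the others. Of 10 neuronal markers, 8 reached 1 FPKM in 12 or more cells and the rest in fewer. The glutamatergic marker Slc17a6, which encodes VGLUT2, reached it in 22 cells. Of the glial and vascular lists, 5 of 7 astrocyte markers, 4 of 7 microglial markers, 3 of 5 endothelial markers and 2 of 7 oligodendrocyte markers, Mog and Olig1, reached 1 FPKM in no cell. Others were present in some cells: 5 of 7 oligodendrocyte markers, 5 of 6 tanycyte and ependymal markers (all but Rax) and all 4 haemoglobin genes, whose summed level reached 2395 FPKM in a Kiss1 cell. The astrocyte list summed to 166 FPKM in cell 12, nearly all from Gfap, and to a median of 0.722 FPKM in Pomc cells. The tanycyte and ependymal list had a median sum of 67.8 FPKM in Pomc cells (0.668 to 258.6), 3.59 in Kiss1 cells (1.40 to 53.9) and 3.44 in the others (0.317 to 78.1), with Vim its most frequent gene. Cells 20 and 23, both Kiss1 cells, had at most 0.127 and 0.143 FPKM of any Y-linked gene examined, while the highest Y-linked value in each of the other cells was at least 6.79 FPKM. Their Xist values, 0.596 and 2.69 FPKM, were within the range of the Y-positive cells, of which cells 3, 11, 13 and 19 had 2.51 to 5.26 FPKM. The low Y-linked values go against the male donors in the labels, so the main Trpc4, Trpc5 and Trpc7 results that use these cells are also given without them.

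The 5 genes lie on 4 chromosomes of mm10 and are all protein-coding: Trpc1 at chr9:95706629-95750358 (minus strand), Trpc4 at chr3:54156057-54318471 (plus), Trpc5 at chrX:144381671-144688180 (minus), Trpc6 at chr9:8544142-8680741 (plus) and Trpc7 at chr13:56773108-56895588 (minus). The TRP box, a short motif just after the last membrane-spanning segment that family members share, is shown as a stretch that can be lined up across the transcripts. For 4 of the genes the coding stretch around it is printed here 5′ to 3′ from the GENCODE M21 transcripts, with the 18 bases of the box in capitals. Each stretch lies within a single coding exon: exon 11 of 12 in Trpc1 (chr9:95708354-95708389), exon 8 of 11 in Trpc4 (chr3:54302106-54302141), exon 8 of 11 in Trpc5 (chrX:144388311-144388346) and exon 9 of 13 in Trpc6 (chr9:8656548-8656583).
Trpc1: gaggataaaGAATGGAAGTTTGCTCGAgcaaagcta
Trpc4: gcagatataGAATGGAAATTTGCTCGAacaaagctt
Trpc5: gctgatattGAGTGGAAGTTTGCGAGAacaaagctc
Trpc6: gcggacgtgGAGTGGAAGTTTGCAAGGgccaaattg

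The box shared 13 to 17 of its 18 bases between any 2 of these 4. Over the whole coding sequence of all 5 members, Trpc6 and Trpc7 were identical at 70.9% of aligned bases and Trpc4 and Trpc5 at 69.0%, while the other 8 pairs lay between 54.8% and 60.4%. The longest identical run was 12 to 24 bases in 9 pairs and 37 bases between Trpc5 and Trpc7. Stretches of 50 bases from a single transcript of each member were also compared with the annotated transcripts of all other genes. Further transcripts of the members were not compared. Trpc1, Trpc4, Trpc6 and Trpc7 shared none, while Trpc5 shared 13 such stretches with transcripts of 493 other genes. All 13 lay after the Trpc5 stop codon, between bases 3422 and 3483 of the 4158-base transcript, and none touched its coding sequence.

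At 1 FPKM, TRPC transcripts were found in some neurons and not in others, and each member had its own set of cells. All 5 members reached it in at least 1 cell, as did 63.7% of all genes. Trpc7 was the most frequent, in 9 of 23 cells (39.1%, exact 95% interval 19.7% to 61.5%, counting error only), where 33.5% of all genes reached that many cells. Trpc4 followed with 7 cells (30.4%, 13.2% to 52.9%; 37.9% of all genes reached 7 cells or more). Trpc6 reached 1 FPKM in 4 cells (17.4%, 4.95% to 38.8%; 46.0% of genes reached as many). For Trpc1 the count was 3 cells (13.0%, 2.78% to 33.6%; 50.0% of genes reached as many). Trpc5 reached it in 1 cell (4.35%, 0.110% to 21.9%), as did 8.46% of all genes. The members are counted in the same 23 cells and the order of their frequencies was not tested.

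**Figure D1:**
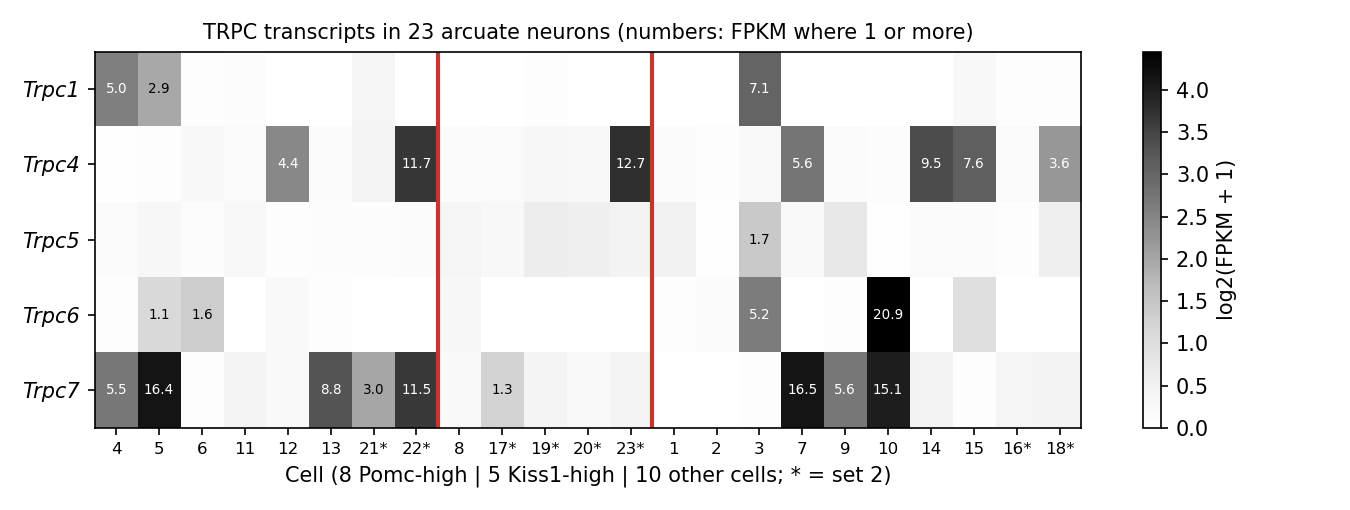
TRPC transcript levels in each of the 23 cells, as log2(FPKM + 1) on a grey scale from 0 (white), with the FPKM printed where it is 1 or more. Cells are ordered by type and set 2 cells carry a star. Trpc7 has the most cells at 1 FPKM (9) and Trpc5 the fewest (1), and 7 cells have none of the 5 genes at 1 FPKM.

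TRPC1 is the subunit that joins TRPC4 or TRPC5 in mixed channels. Its transcript stood at 7.12 FPKM in cell 3, at 5.01 FPKM in cell 4 and at 2.88 FPKM in cell 5, was listed at 0 in 13 cells, and lay between 0.0413 and 0.295 FPKM in the other 7. The 3 high cells stood clear of the rest and were all in set 1; in set 2, 0 of 8 cells reached 1 FPKM. Cells 4 and 5 were Pomc cells and cell 3 belonged to neither peptide type, though at 922 FPKM it had the most Pomc outside the Pomc cells. No Kiss1 cell exceeded 0.0448 FPKM of Trpc1. The values fell on whole multiples of 1 read (within 0.03 of a read) in all 10 cells above 0, which puts 155 reads behind the value in cell 3, 77 behind that of cell 4 and 53 behind that of cell 5, and 1 to 3 reads behind each of the low values.

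TRPC4, a subunit that forms channels on its own or with TRPC1, responds to both Gq- and Gi-coupled receptors. Trpc4 stood at 12.7 FPKM (cell 23), 11.7 (cell 22), 9.52 (cell 14), 7.58 (cell 15), 5.65 (cell 7), 4.43 (cell 12) and 3.62 FPKM (cell 18). In the other 16 cells it lay between 0.0355 and 0.318 FPKM, and no cell lay between 0.318 and 3.62 FPKM. The 7 cells were spread over every type: 2 of 8 Pomc cells, 1 of 5 Kiss1 cells and 4 of the 10 others. Without cells 20 and 23 the count was 6 of 21 (28.6%), with no Kiss1 cell left among them. They were spread over both title sets as well, with 4 of 15 cells in set 1 and 3 of 8 in set 2. In no cell did Trpc1 and Trpc4 both reach 1 FPKM, and the highest Trpc1 value among the 7 Trpc4 cells was 0.172 FPKM, in cell 15.

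Pooled over both sets, the type means of Trpc4 on the log2(FPKM + 1) scale were 0.90 (SD 1.38) over the 8 Pomc cells, 0.92 (SD 1.60) over the 5 Kiss1 cells and 1.23 (SD 1.43) over the 10 others, and the types overlapped. The pooled values mix the sets: Pomc minus Kiss1 was -0.02 over all cells but 0.38 within set 1 (1 Kiss1 cell) and 0.92 within set 2, and Pomc minus other was -0.34 over all cells but -0.73 within set 1 and 0.85 within set 2. The Kiss1 mean rested on cell 23: the 4 remaining Kiss1 cells had 0.0988 (cell 8), 0.117 (cell 17), 0.190 (cell 20) and 0.214 FPKM (cell 19). Without cells 20 and 23 the Pomc cells were above the Kiss1 cells by 0.70 instead of below them by 0.02, and the Kiss1 cells minus the others gave -1.04 instead of -0.31. Across the 23 cells the log2 level of Trpc4 had a Pearson r of -0.50 and a Spearman rho of -0.33 with relative depth, with cells 14, 22 and 23 among the shallower libraries, and without cells 20 and 23 these were -0.47 and -0.29. The part of depth in these values was not tested.

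TRPC5 is the member described for leptin and serotonin 2C responses of POMC neurons and for neurokinin B responses of kisspeptin neurons. Its transcript was listed at a low level in every neuron: it was above 0 in all 23 cells, as were 25.6% of all genes, yet reached 1 FPKM only in cell 3 (1.67 FPKM). A pattern of values above 0 in every cell with at most 1 cell at 1 FPKM was shared by 1.03% of genes. After cell 3, the highest values were 0.667 (cell 9), 0.546 (cell 19), 0.493 (cell 18), 0.486 (cell 20), 0.391 (cell 1) and 0.349 FPKM (cell 23), and the lowest was 0.0125 FPKM in cell 2. The median over all cells, 0.149 FPKM, was nearly that of Trpc4 (0.150 FPKM), but Trpc4 rose to several FPKM in 7 cells and Trpc5 did not.

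Among the types as defined here, Trpc5 had its lowest median in the Pomc cells. These held 0.0415 FPKM (cell 12), 0.0626 (cell 21), 0.0660 (cell 13), 0.0733 (cell 6), 0.0984 (cell 22), 0.113 (cell 4), 0.196 (cell 11) and 0.202 (cell 5), with a median of 0.0859 FPKM. The 5 Kiss1 cells held 0.195 (cell 17), 0.277 (cell 8), 0.349 (cell 23), 0.486 (cell 20) and 0.546 FPKM (cell 19), with a median of 0.349 FPKM. Only the highest Pomc cells, 5 and 11, overlapped the lowest Kiss1 cell, 17. The 10 other cells ran from 0.0125 to 1.67 FPKM around a median of 0.143 FPKM and covered the whole range of both.

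On the log2(FPKM + 1) scale the Trpc5 mean was 0.14 (SD 0.08) in Pomc cells and 0.45 (SD 0.15) in Kiss1 cells, a difference of -0.30. This scale compresses values far below 1; with a pseudocount of 0.1 the difference was -1.18. It had the same sign in set 2 (-0.36, 2 Pomc and 4 Kiss1 cells) and in set 1 (-0.20, where cell 8 was the only Kiss1 cell). Without cells 20 and 23 it was -0.27. Where cells with 500 FPKM or more of Pomc count as Pomc cells, cell 3 and cell 16 (Trpc5 at 1.67 and 0.0530 FPKM) join them. The difference from Kiss1 cells was then -0.18, and that from the other cells went from -0.24 to -0.03. At these levels the reads behind a value are few: the estimated number was 51.0 for cell 3, 21.2 for cell 20, 17.3 for cell 9, 17.2 for cell 19 and 16.4 for cell 18, and under 1 in cells 2, 10, 12 and 21.

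**Figure D2:**
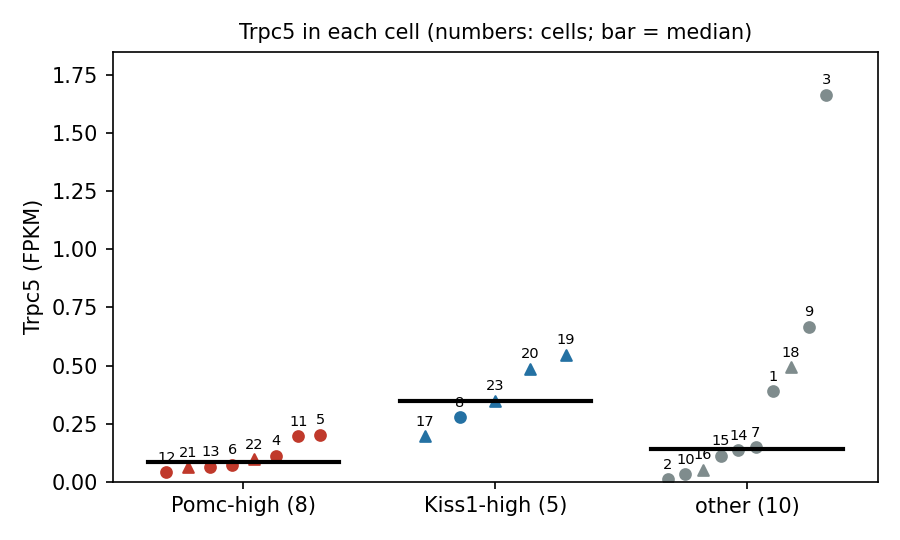
Trpc5 level (FPKM, linear axis from 0) in each cell of the 3 types, with cell numbers, circles for set 1, triangles for set 2 and a bar at the median. The medians are 0.0859 FPKM in Pomc cells, 0.349 FPKM in Kiss1 cells and 0.143 FPKM in the others, and cell 3 alone exceeds 1 FPKM.

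Values of each member were compared with whole multiples of its own smallest value. Trpc5 and Trpc4 lay on such multiples in only 3 of 23 cells each, the smallest value itself included. Those smallest values were estimated at 0.330 of a read for Trpc5 and 0.642 for Trpc4. Trpc1, Trpc6 and Trpc7 lay on whole multiples in every cell above 0, and their smallest values were estimated at 0.986, 0.986 and 1.06 reads. The estimates are rough, because the value of 1 read had an interquartile range of 29.3% of its median over 207 genes. Fractions of a read can arise where the quantification shares reads between places or transcripts. For Trpc5 this stands beside the stretch after its stop codon that it shares with transcripts of 493 other genes. For Trpc4 no such stretch was found in the single transcript compared. The part of shared reads in the low Trpc5 values was not tested.

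TRPC6 is opened directly by diacylglycerol. Trpc6 reached the highest single value of any member, 20.9 FPKM with 348 reads in cell 10. Cell 3 followed with 5.24 FPKM (124 reads), cell 6 with 1.56 FPKM (41 reads) and cell 5 with 1.15 FPKM (23 reads). Cell 15 lay just under the limit at 0.951 FPKM (18 reads). In set 2 each of the 8 cells had an exact 0 for Trpc6, while 12 of the 15 set 1 cells were above 0. Cells 5 and 6 were Pomc cells, cells 3 and 10 belonged to neither type, and no Kiss1 cell exceeded the 0.222 FPKM of cell 8. Because 4 of 5 Kiss1 cells were in set 2, the peptide type and the title set cannot be told apart for Trpc6.

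TRPC7 is the closest relative of TRPC6 and is also opened by diacylglycerol. Its 9 cells had 16.5 FPKM (cell 7), 16.4 (cell 5), 15.1 (cell 10), 11.5 (cell 22), 8.79 (cell 13), 5.56 (cell 9), 5.54 (cell 4), 3.00 (cell 21) and 1.35 (cell 17). The first 7 had 95 to 338 reads each, cell 21 had 34 and cell 17 had 27. Trpc7 was listed at 0 in cells 1 and 2 and lay between 0.0370 and 0.366 FPKM in the other 12 cells, worth 1 to 9 reads.

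Trpc7 was most frequent in Pomc cells. It reached 1 FPKM in 5 of 8 Pomc cells (median 4.27 FPKM), in 1 of 5 Kiss1 cells (median 0.307 FPKM) and in 3 of the 10 others (median 0.320 FPKM). The 3 remaining Pomc cells were low, with 0.0370 (cell 6), 0.143 (cell 12) and 0.310 FPKM (cell 11), within the range of the Kiss1 cells or below it. The Kiss1 cells held 0.144 (cell 8), 0.145 (cell 20), 0.307 (cell 23), 0.321 (cell 19) and 1.35 FPKM (cell 17). The others were split, with cells 7, 9 and 10 among the highest of all and 7 cells at or below 0.366 FPKM.

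On the log2(FPKM + 1) scale the Trpc7 mean was 2.05 (SD 1.65, n = 8) in Pomc cells and 0.48 (SD 0.43, n = 5) in Kiss1 cells. The difference of 1.57 was the only one between types, among the 5 members, to pass 1 in either direction, and 12.2% of all genes, or 23.9% of those at 1 FPKM in at least 3 cells, were higher in Pomc than in Kiss1 cells by 1 or more (3.75% of all genes were lower). It is smaller than the SD within the Pomc cells, and the 2 types overlap. Within set 1 it was 1.60 against the single Kiss1 cell there, and within set 2 it was 2.27 (2 Pomc against 4 Kiss1 cells). Without cells 20 and 23 it was 1.44. The tanycyte and ependymal markers were also highest in Pomc cells (median sums above). Every Kiss1 cell had fewer genes at 1 FPKM than every Pomc cell but cell 12. The part of the markers and of these gene counts in the Trpc7 result was not tested.

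The others, with a mean of 1.22 (SD 1.70, n = 10), lay between the Pomc and the Kiss1 cells. Pomc cells exceeded them by 0.83, where 4.46% of all genes were higher and 3.23% lower by 1 or more. This difference depended on the set: 0.36 within set 1 (6 Pomc cells, 8 others) and 2.42 within set 2, where the 2 others, cells 16 and 18, had 0.299 and 0.341 FPKM. It also depended on the type limit and the scale, at 0.21 with a Pomc limit of 500 FPKM, 1.62 with a pseudocount of 0.1 and 1.95 for medians. With each cell rescaled to a sum of 1000000 FPKM it was 1.03. Kiss1 cells were below the others by 0.74, with 11.0% of all genes lower and 3.97% higher by 1 or more in that comparison. Without cells 20 and 23 this was -0.61, and in set 2 alone the sign was the opposite (0.15, 4 Kiss1 cells and 2 others).

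For Trpc1, Trpc5 and Trpc6 no difference between types passed 1 with the pseudocount of 1. With a pseudocount of 0.1, Pomc minus Kiss1 was 1.62 for Trpc1 and Kiss1 minus other was -1.55 for Trpc6. With the pseudocount of 1, Pomc minus Kiss1 was 0.62 for Trpc1 (0.78 within set 1, 0.17 within set 2) and 0.29 for Trpc6 (0.18 within set 1, 0 within set 2), each carried by 2 Pomc cells, and Kiss1 minus other was -0.32 for Trpc1 and -0.77 for Trpc6. For none of the 5 members did any pair of types fail to overlap; among all genes, 0.466% showed no overlap between Pomc and Kiss1 cells, 0.137% between Kiss1 and other cells and 0.00855% between Pomc and other cells. The comparisons share cells and are not independent of each other.

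**Figure D3:**
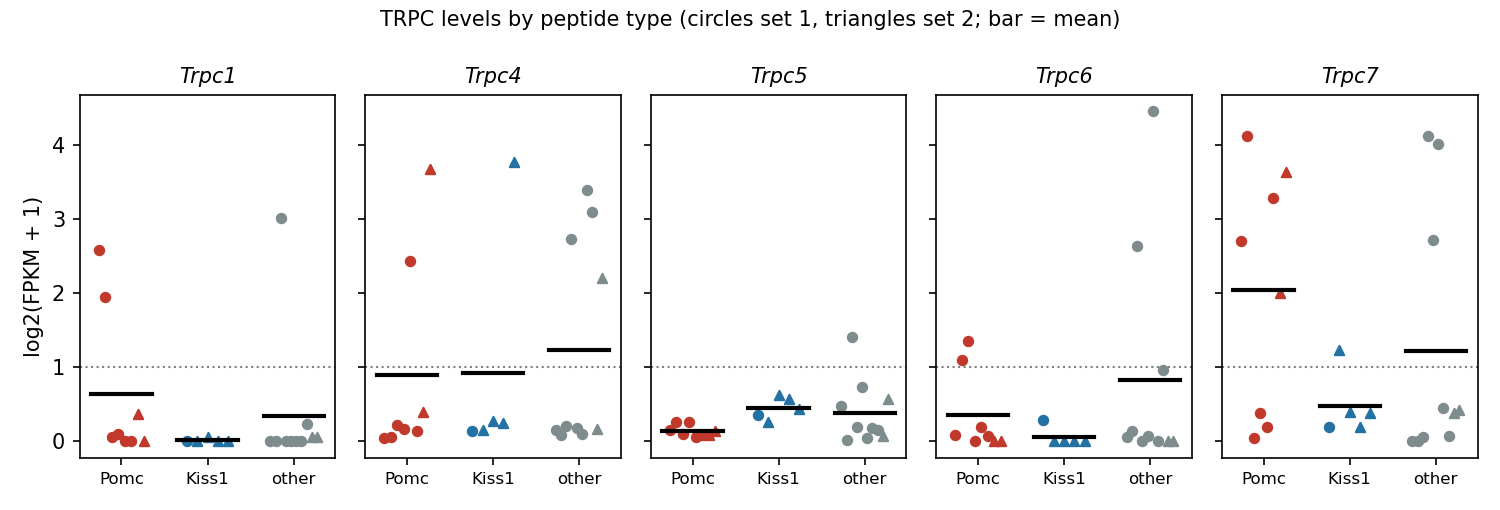
Levels of the 5 members as log2(FPKM + 1) in Pomc, Kiss1 and other cells, 1 point a cell (circles set 1, triangles set 2), with a bar at the mean and a dotted line at 1 FPKM. Trpc7 has 5 of 8 Pomc cells above the line and 1 of 5 Kiss1 cells, Trpc4 has cells above it in each type, and Trpc5 stays below it in all but 1 cell.

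Most neurons held at least 1 of the 5 transcripts at 1 FPKM. This was so in 16 of 23 cells (69.6%, 47.1% to 86.8%): 7 of 8 Pomc cells, 2 of 5 Kiss1 cells and 7 of the 10 others. Without cells 20 and 23 it was so in 15 of 21 cells (71.4%). In comparison, the median cell had 7090 of all 23400 genes at 1 FPKM, with fewer in most Kiss1 cells than in Pomc cells. How often other sets of 5 genes have a member present was not tested, so these counts are not read as high or low. In 10 cells a single member reached 1 FPKM, in 4 cells 2 members and in 2 cells 3 members. The 7 cells with none were cells 1, 2, 8, 11, 16, 19 and 20, of which cell 20 was the deepest library. The summed level of the 5 genes had a median of 4.76 FPKM and was highest in cell 10, at 36.1 FPKM, from Trpc6 and Trpc7 together.

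The members met in few combinations. Trpc7 occurred with Trpc4 in cells 7 and 22, with Trpc6 in cells 5 and 10 and with Trpc1 in cells 4 and 5. Trpc1 and Trpc6 met in cells 3 and 5. Trpc1 and Trpc5, which can assemble, met in cell 3 only, and cell 3 was also the only cell with both of them and Trpc6. Trpc4 was at 1 FPKM with Trpc7 and with no other member, and Trpc5 with Trpc1 and Trpc6 but not with Trpc4 or Trpc7.

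Trpc2, a pheromone-sensing channel gene of the mouse, reached 1 FPKM in 6 cells (highest 8.48 FPKM in cell 8), but its locus shares 2803 exon bases with Xntrpc and 71 with Xndc1, so its reads cannot be assigned with certainty.

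Low values of a gene can be set against a carry-over index. The index uses genes that peaked at 100 FPKM or more, with at most 2 cells at 10% of the peak or above, all in 1 set. There were 13 such genes for set 1 and 20 for set 2. The index of a cell is its median share of the set's summed FPKM, over those genes in which it is not a high cell. It ran from 0.0414% (cell 4) to 0.741% (cell 21). Values of Trpc5 above 0 and under 1 FPKM, each as a share of the gene's sum in the set, exceeded the index in 22 of 22 cells. The median was 34.9 times the index, and 19 cells exceeded it by more than 5 times. Trpc4 values exceeded it in 16 of 16 cells by a median of 2.90 times, and Trpc7 values in 9 of 12 cells by a median of 3.80 times. Trpc1 values did so in 7 of 7 cells by a median of 55.6 times, though each rests on 1 to 3 reads, and Trpc6 values in 6 of 8 cells by a median of 1.86 times. The ratio depends on the gene's sum in the set, which is small for Trpc5 and, in set 2, for Trpc1. For Trpc5 that sum is mostly made up of these same low values, and in set 2 wholly, as it is for Trpc1 there. Their shares are then large by construction, so exceeding the index was no test of carry-over for them. For Trpc6 and Trpc7 the cells at 0 were left out, and 1 read alone could exceed the index. With 1 read, Trpc6 in cell 4 was at 0.196% against 0.0414%, and Trpc7 in cell 15 at 0.0746% against 0.0589%. Trpc7 in cell 6, also with 1 read, was below it (0.0537% against 0.115%). Carry-over was therefore not tested for any member. The ratios do not rank the members by expression.

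**Figure D4:**
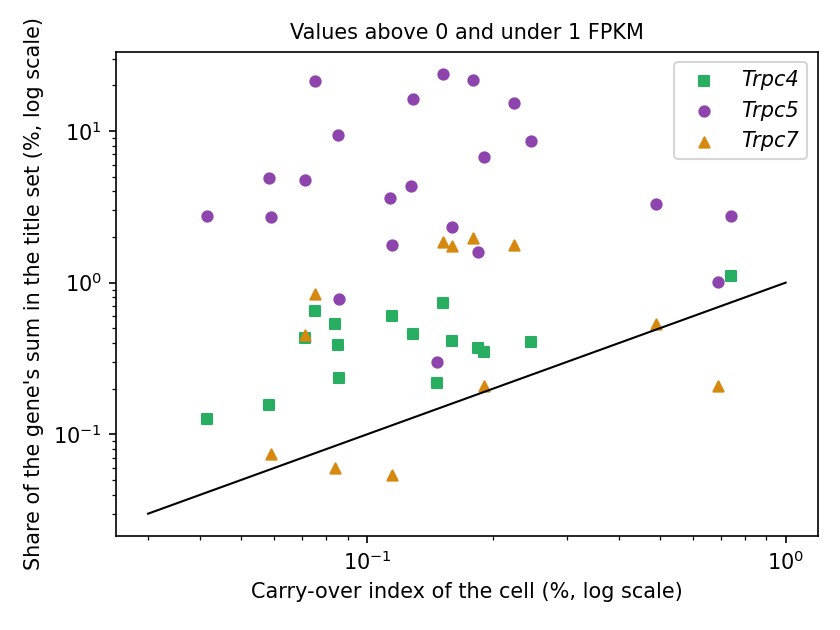
Values above 0 and under 1 FPKM of Trpc4, Trpc5 and Trpc7, each as the percentage of the gene's summed FPKM in its title set (y axis, log scale), against the carry-over index of the cell (x axis, %, log scale). The line marks equality. All 22 Trpc5 points lie above it and 19 by more than 5 times, while 3 of 12 Trpc7 points lie below it. The Trpc5 shares are of a sum made up mostly of these same low values, so they are large by construction.

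Genes of receptors listed for their links to TRPC signalling differed widely in how many cells held them. Of 15 listed, 13 were present in some cell and 4 in 12 cells or more: the BDNF receptor gene Ntrk2 in 21 cells (median 18.4 FPKM), the PACAP receptor gene Adcyap1r1 in 19 (6.42 FPKM), the orexin receptor gene Hcrtr2 in 13 (1.48 FPKM) and the insulin receptor gene Insr in 12 (1.31 FPKM). In comparison, 27.8% of all genes reached 12 cells. The glutamate receptor gene Grm5 was at 1 FPKM in 8 cells, the oestrogen receptor gene Esr1 in 10, and the leptin (Lepr), neurokinin B (Tacr3) and oxytocin (Oxtr) receptor genes in 5 each. The ghrelin receptor gene Ghsr was in 3 cells, and the kisspeptin receptor gene Kiss1r and the muscarinic gene Chrm1 in 2 each. Htr2c, the serotonin 2C receptor gene, and Chrm3 reached 1 FPKM in no cell, with highest values of 0.583 and 0.427 FPKM.

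At 1 FPKM, Trpc5 was present in 1 cell, so which receptors it stood beside rests on that cell alone. Cell 3 held Trpc5 with Insr, Esr1, Grm5, Ntrk2 and Hcrtr2, but not with Lepr, Htr2c, Tacr3, Oxtr, Kiss1r, Adcyap1r1, Ghsr, Chrm1 or Chrm3. Htr2c and Chrm3 reached 1 FPKM in no cell, so they could not meet it. In the 5 Lepr cells (1, 4, 5, 13 and 23) Trpc5 ran from 0.0660 to 0.391 FPKM. In the 5 Tacr3 cells (8, 15, 19, 20 and 23), 4 of them Kiss1 cells, Trpc5 ran from 0.112 to 0.546 FPKM. Trpc4 reached 1 FPKM in 2 of the Tacr3 cells, 15 and 23.

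Trpc7, present in 39.1% of all cells, met the receptor genes in differing shares of their cells. It reached 1 FPKM in 3 of 5 Lepr cells, the Pomc cells 4, 5 and 13, and in 3 of 5 Oxtr cells, 4, 7 and 13. Trpc7 met Grm5 in 5 of 8 cells, Adcyap1r1 in 8 of 19 and Ntrk2 in 7 of 21. It met Hcrtr2 in 5 of 13, Insr in 4 of 12, Ghsr in 1 of 3 and Esr1 in 1 of 10, and Tacr3, Kiss1r and Chrm1 in none. Trpc4 reached 1 FPKM in both Kiss1r cells, 14 and 18, in 5 of 12 Insr cells and in 1 Lepr cell, 23. Trpc1 met Lepr in cells 4 and 5, and Trpc6 met it in cell 5. Whether these counts differ from what the genes' own frequencies give was not tested.

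Downstream of the receptors, the G protein and lipase genes were partly present in every neuron. Gnaq, which encodes the alpha subunit of Gq that activates phospholipase C, reached 1 FPKM in 23 of 23 cells (median 16.7 FPKM), and its relative Gna11 in 22 (30.0 FPKM). Of the phospholipase C genes, Plcg1, the form used by receptor tyrosine kinases, was in 18 cells (7.19 FPKM) and Plcb1, a form activated by Gq, in 9. Plcb1 was in 7 of 8 Pomc cells, 0 of 5 Kiss1 cells and 2 of the 10 others, with medians of 3.47, 0.0333 and 0.0560 FPKM. In set 2 it was in both Pomc cells and in none of the others. Its mean log2(FPKM + 1) was 1.90 in Pomc and 0.05 in Kiss1 cells. Of all genes, 12.2% were higher in Pomc than in Kiss1 cells by 1 or more, and 23.9% of those at 1 FPKM in at least 3 cells. Kiss1 cells mostly had fewer genes at 1 FPKM, and the part of this was not tested. Type counts of the list's other genes are not given here. Of the 9 Trpc7 cells, Plcb1 reached 1 FPKM in cells 4, 13, 21 and 22. The counts of this and the following lists can be read against all genes, of which 63.7% were present in some cell and 27.8% in 12 cells or more. Of 11 genes in this list, 10 reached 1 FPKM in a cell and 1, Plce1, in none.

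All 5 Gi and Go genes reached 1 FPKM in 12 cells or more. Gnai1, Gnai2 and Gnao1, whose Gi and Go proteins couple receptors to TRPC4 and TRPC5, were in all 23 cells, with medians of 77.6, 41.4 and 82.9 FPKM, and Gnaz was in 19. Of the 16 genes for diacylglycerol kinases, lipases and protein kinase C, which remove diacylglycerol or act on it, 15 were found somewhere and 7 were in 12 cells or more. Prkce was in all 23 cells (28.6 FPKM), Prkcb in 22 (6.03 FPKM) and Dgkg in 16 (1.87 FPKM).

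Genes of the JAK and PI3 kinase route, by which leptin and insulin receptors reach TRPC channels, were all found: each of the 12 was present in some cell and 7 were in 12 cells or more. Irs2 was in 21 cells, Stat3 in 19, Ptpn11 in 17 and Sh2b1 in 16. Of 13 calcium store genes, 11 were found. The calcium pump gene Atp2a2 was in 21 cells (20.1 FPKM), the store sensor gene Stim1 in 19 (11.4 FPKM), the release channel genes Ryr2 and Itpr1 in 18 (3.59 FPKM) and 12 (1.28 FPKM). Of 19 genes for proteins that bind TRPC channels, 18 were found and 7 were in all cells; among them, the calmodulin genes Calm2 and Calm3, whose products bind TRPC tails, and Fkbp1a had medians of 2781, 206 and 264 FPKM.

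**Figure D5:**
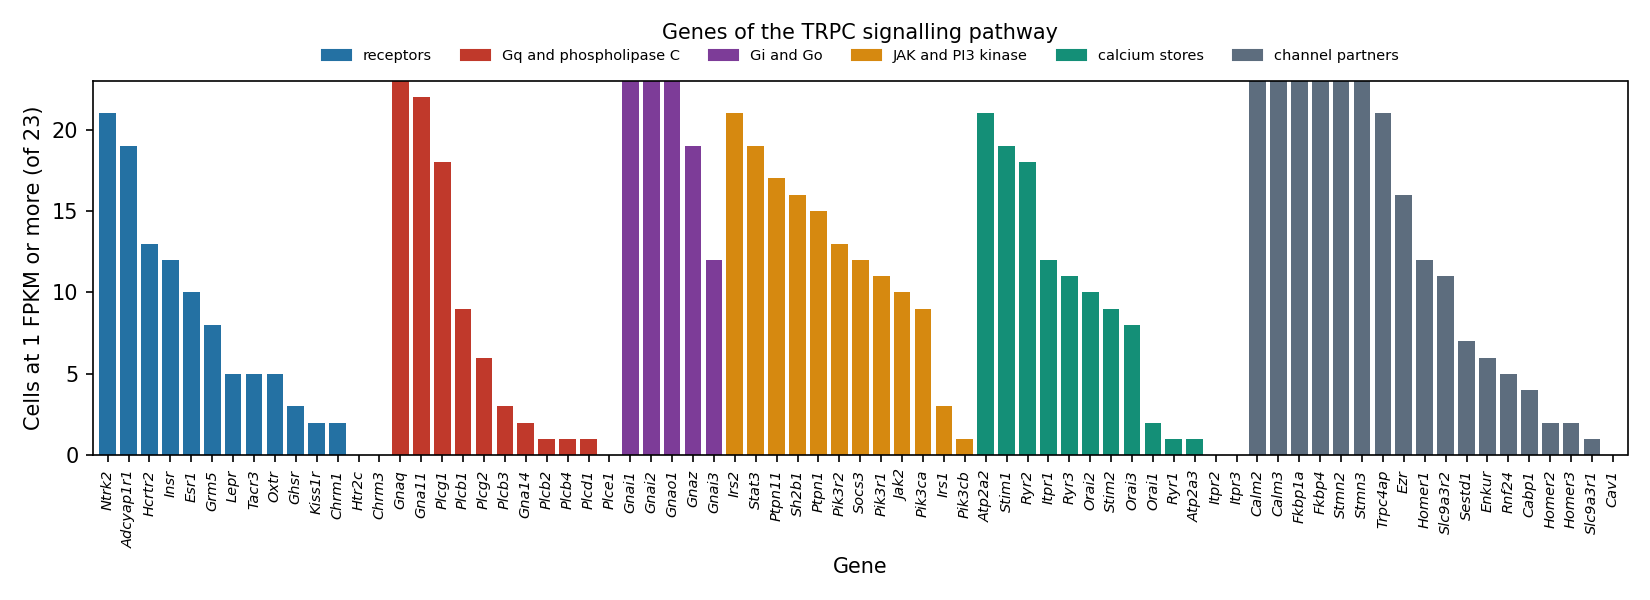
Number of cells at 1 FPKM or more (of 23) for genes of 6 lists around the TRPC channels, in bars from 0 coloured by list. Gnaq, Gnai1, Gnai2 and Gnao1 reach all 23 cells, while the receptor genes range from 21 cells (Ntrk2) to 0 (Htr2c and Chrm3).

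TRPC genes were less frequent than a few channels of the wider TRP family. Of 21 other TRP genes, 9 reached 1 FPKM in at least 1 cell. Pkd2l2, a polycystin-family channel gene, did so in 21 cells (4.92 FPKM), the lysosomal channel gene Mcoln1 in 20 (20.4 FPKM), the channel kinase gene Trpm7 in 17 (4.80 FPKM) and Trpv2 in 14 (3.36 FPKM). The other 12 of the 21, among them Trpv1, Trpa1 and Trpm8, reached it in no cell.

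The genes most like Trpc4 and Trpc7 over the 23 cells were sought by Pearson r of log2(FPKM + 1) among 9990 genes at 1 FPKM in at least 5 cells; the other members reached too few cells. For Trpc4 they were Plcl2, a phospholipase C-like gene (r 0.84), Hlf, a transcription factor gene (0.75), and Dennd4a (0.73). Plcl2 was at 1 FPKM in 8 cells, which included all 7 Trpc4 cells and cell 2. For Trpc7 they were Mtpap, the mitochondrial poly(A) polymerase gene (0.81), 9330182L06Rik (0.75) and Fzd5, a Wnt receptor gene (0.75), which shared 7, 8 and 4 of the 9 Trpc7 cells. Spearman rho was lower for all 6, from 0.48 for 9330182L06Rik to 0.67 for Plcl2. With cells 20 and 23 left out, r was 0.80 for Plcl2 and 0.89 for Mtpap. These are the highest of many values over the same cells, and the cells differ in depth.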

How the data were processed

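Per the labels' protocols, single GFP-positive arcuate neurons were isolated after papain digestion and their RNA was amplified by SmartSeq2 and sequenced from NuGen Ovation Rapid libraries. CASAVA 1.8, TopHat, Cufflinks and mm10 are named in the submitters' processing notes without further settings. FPKM per gene and cell stand in a single deposited table. Of its 23896 rows, 12 leftover summary rows, which hold values below 0 or of other kinds, and 286 identical rows were left out, 27 date-named rows stayed unnamed, and rows of 124 symbols were summed. Without molecular identifiers, amplified copies count as reads.

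Cells were not treated as replicates, so results are counts, medians and differences of mean log2(FPKM + 1), without p-values. Members and gene lists were chosen with earlier results of these data known. Named genes are the 5 members, Trpc2, the receptors, the 4 most frequent genes of each other list and the 3 genes most like each member with at least 5 cells; Slc17a6, Plce1, Trpv1, Trpa1, Trpm8 and markers were added by hand. Some genes and a sequence that this rule selects are not reported here. Shares carry exact Clopper-Pearson intervals. The value of 1 read was taken from 207 genes with 1 transcript of 3000 to 6000 bases, with relative depth from the spacing of low values; 1 FPKM is 7.34 to 10.3 reads in the shallowest library and 30.9 to 43.5 in the deepest, over the 5 members. Coding sequences were aligned in pairs on GENCODE M21 transcripts. The calculations (Python 3.11.15; scipy 1.17.1, pandas 2.3.3, numpy 2.4.6, matplotlib 3.10.9) were tested on simulated data. Other thresholds, pseudocounts, type limits, title sets and left-out cells were tried, and so was a rescaling of each cell to a sum of 1000000 FPKM.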

Additional observations from a re-analysis of the deposited data

Results flagged for a closer look

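In 6 of 15 combinations of a member and a peptide type, 1 cell stood far from the rest of its type. The rule was Dixon's, on log2(FPKM + 1): the gap to the nearest cell, divided by the range of the type, exceeded a critical value. That value was 0.71 for the 5 Kiss1 cells and 0.466 for the 10 other cells. For normally distributed values this would happen in about 1 in 20 groups. The log2 values are skewed and many are 0, so that rate does not hold here. Among the 10 other cells, cell 3 stood apart with 7.12 FPKM of Trpc1 and with 1.67 FPKM of Trpc5. Among the 5 Kiss1 cells, cell 23 stood apart with 12.7 FPKM of Trpc4 and cell 17 with 1.35 FPKM of Trpc7. Also among the Kiss1 cells, cell 8 stood apart with 0.222 FPKM of Trpc6 and cell 19 with 0.0448 FPKM of Trpc1, where in each case the remaining Kiss1 cells were listed at 0, so that any value above 0 would stand apart.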

How the results depend on the processing

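Counts at 1 FPKM depended on the threshold. With any value above 0 counted, Trpc1 was in 43.5% of cells, Trpc6 in 52.2%, Trpc7 in 91.3%, and Trpc4 and Trpc5 in 100%. Every cell (100%) then had 2 or more members, and 100% had Trpc5 with at least 1 of Lepr, Insr, Htr2c, Kiss1r, Tacr3, Oxtr and Esr1. Both shares were fixed, because Trpc4, Trpc5, Htr2c and Esr1 were each above 0 in all 23 cells. At 5 FPKM Trpc5, and so Trpc5 with a receptor, was in 0% of cells. In set 2 alone, Trpc1, Trpc5, Trpc6 and Trpc5 with a receptor were in 0% of 8 cells. The summed FPKM of a cell ran from 379513 to 687511. With each cell rescaled to 1000000, Trpc5 was in 2 cells (8.70%), Trpc6 in 5 (21.7%) and 2 or more members in 8 (34.8%). The shares for Trpc1, Trpc4, Trpc7 and any member did not change. Rescaled, Pomc minus Kiss1 was -0.45 for Trpc5 and 1.95 for Trpc7, and Pomc minus other was 1.03 for Trpc7. The Trpc7 difference between Pomc and Kiss1 cells stayed above 1 in the alternatives run, from 1.20 (Pomc limit of 500 FPKM) to 2.30 (pseudocount of 0.1), and from 1.50 to 1.76 with each Kiss1 cell left out in turn. With the pseudocount of 0.1, Pomc minus Kiss1 was 1.62 for Trpc1 and -1.18 for Trpc5; Trpc5 was lower in Pomc cells in all 14 alternatives. For Trpc4 the sign of this difference changed: it was above 0 in 5 of 14 alternatives and was 0.69 without cell 23. The alternatives without cells 20 and 23 and without cell 14 were chosen after seeing the data. No paired analysis was possible because all cells belong to 1 group. The number of cells (23) and the few reads behind values under 1 FPKM limit what can be resolved.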
